A study of Homo sapiens with 4 samples.

Results

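The genes described here are the human potassium channel genes, taken as all genes of the count tables whose symbol begins with KCN followed by a further letter. There were 98 of them among 23228 genes. Potassium channels are membrane pores that let potassium ions pass far more readily than sodium ions, and they set the resting membrane potential and cell volume of most cells. The family holds voltage-gated channels (Kv, including the KCNH and KCNQ genes), calcium- or sodium-activated channels, inward rectifiers (KCNJ), tandem-pore K2P channels (KCNK) and auxiliary subunits that bind the pore-forming proteins. In tumour cells, several members, among them KCNMA1 and KCNH2, are known for roles in the cell cycle and in migration. The family was selected on these same data, for the fall of KCND1 with LY500307, so the values of KCND1 are a description and carry no test.

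The RNA came from libraries labelled SKOV3, an established ovarian cancer cell line. Cells with aldehyde dehydrogenase activity (ALDH+) had been sorted by flow cytometry with the ALDEFLUOR reagent as ovarian cancer stem cells (OCSCs) and grown in serum-free medium. They received vehicle (2 samples) or the estrogen receptor beta (ERβ) agonist LY500307 at 5 µM (2 samples), each for 24 h. Both groups carry the same line label, and the labels name no engineered allele. The sources used here do not say whether the 2 samples of a group were separate cultures, so p-values measure only the spread between these samples, which may be technical.

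Gene totals ranged from 28841701 to 34943882 reads. The replicates were not copies of each other, and the LY500307 pair differed more (chi-square per degree of freedom 44.9) than the vehicle pair (5.23). LY500307 replicate 2 also had the smallest share of uniquely tallied reads outside genes, 25.5%, against 28.4% to 30.8% in the other 3 libraries. Several markers went against the label of an ovarian epithelial line. PAX8 had 0 reads in every library, WT1 had 0 to 2, CDH1 0 to 4 and KRT19 0 to 2, whereas the fibroblast-associated receptor gene PDGFRA had 39900 to 48624. KRT7 (0 to 1 reads) and CDKN2A (834 to 1107), both chosen after their values were seen, also went against it, since SKOV3 is known to lack CDKN2A. The rest of the listed epithelial markers were mixed, with KRT8 at 9 to 33 reads, KRT18 at 668 to 1030 and MUC1 at 159 to 262. EPCAM had 6213 to 8327 reads and ERBB2 1452 to 2060. The mean level of ERBB2 over the 4 libraries was 53.9 CPM, against 1419 CPM for PDGFRA. Whether this ERBB2 level matches the label was not tested. The target of the agonist, ESR2, had 7 to 12 reads per library and ESR1 had 0. The samples are therefore called by their label only. Summed levels of the 6 epithelial markers were 244 and 251 CPM with vehicle and 277 and 232 with LY500307. Most of this came from EPCAM, with 208 and 219 CPM against 240 and 194. The 4 fibroblast markers summed to 1644 and 1621 against 1646 and 1691 CPM, mostly from PDGFRA. The 5 neuronal markers summed to 19.9 and 17.8 against 21.1 and 16.8 CPM. These were carried mostly by SYT1 (321 to 419 reads) and NEFL (153 to 291), with RBFOX3 at 0 to 2 reads. The 4 muscle markers summed to 7.01 and 7.88 against 7.09 and 5.10 CPM, nearly all from ACTN2 (164 to 242 reads), with MYH6 at 0 in every library. The blood and endothelial markers PTPRC, CD3E and CDH5 had 0 to 4 reads. CPM values are counts scaled to a common library total, with TMM factors.

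What the pore-forming members share is the selectivity filter, a short turn of the protein that strips water from potassium ions. Its core is a glycine, an aromatic residue (tyrosine or phenylalanine) and a glycine. In the coding sequences of the GENCODE canonical transcripts, found for 95 of the 98 genes, a filter pattern (threonine or serine, any residue, glycine, then tyrosine, phenylalanine or leucine, then glycine) was searched. It occurred once in all 8 calcium- or sodium-activated channels and in all 15 inward rectifiers searched. It occurred once in 38 voltage-gated genes and in 2 places in the other 2, KCNH2 and KCNH4. In each of these 2, 1 match had the leucine form, and only the other had the core with an aromatic residue. In the K2P class, whose subunits carry a pair of pore domains, 12 of 15 genes had it in 2 places. All 17 auxiliary genes lacked it. The pattern was also present in the silent modifier subunits of the KCNF, KCNG, KCNS and KCNV genes, so it does not by itself mark a member that conducts alone. The stretches below show the shared filter for 2 highly expressed channels, the Kv4 genes and the inward rectifier described below. Capitals mark the codons of the core.
KCNMA1: atgtccaccgttGGTTATGGGgatgtt
KCNH2: ctcaccagtgtgGGCTTCGGCaacgtc
KCND1: atgaccacgcttGGCTACGGAgacatg
KCND2: atgacaacactaGGGTATGGTgacatg
KCND3: atgaccacactgGGATACGGAgacatg
KCNJ4: cagacgaccatcGGCTATGGGttccgg
On GRCh37 the stretch of KCNMA1 lay at chr10:78869988-78870014, that of KCNH2 at chr7:150648591-150648617 and that of KCNJ4 at chr22:38823718-38823744. Each of these was within 1 coding exon on the minus strand. The stretches of the 3 KCND genes each crossed an exon junction.

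Which channels were expressed was asked first. Of the 98 genes, 20 had no read in any library, which allows a level of up to 0.0239 CPM over the 4 libraries (3 reads of 125415539, counting error only). Another 32 had reads but too few to be tested, at most 43 in total. The remaining 46 (46.9%) passed the expression filter, against 62.3% of all genes. Mean levels were at least 10 CPM for 11 of the 46, between 1 and 10 CPM for 26 and under 1 CPM for 9. By class, 19 of 40 voltage-gated genes, 9 of 17 auxiliary genes, 5 of 8 calcium- or sodium-activated channels, 6 of 16 inward rectifiers and 6 of 15 K2P genes passed, as did 1 of 2 non-coding genes. The plot of levels in each library shows 44 of them class by class.

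**Figure D1:**
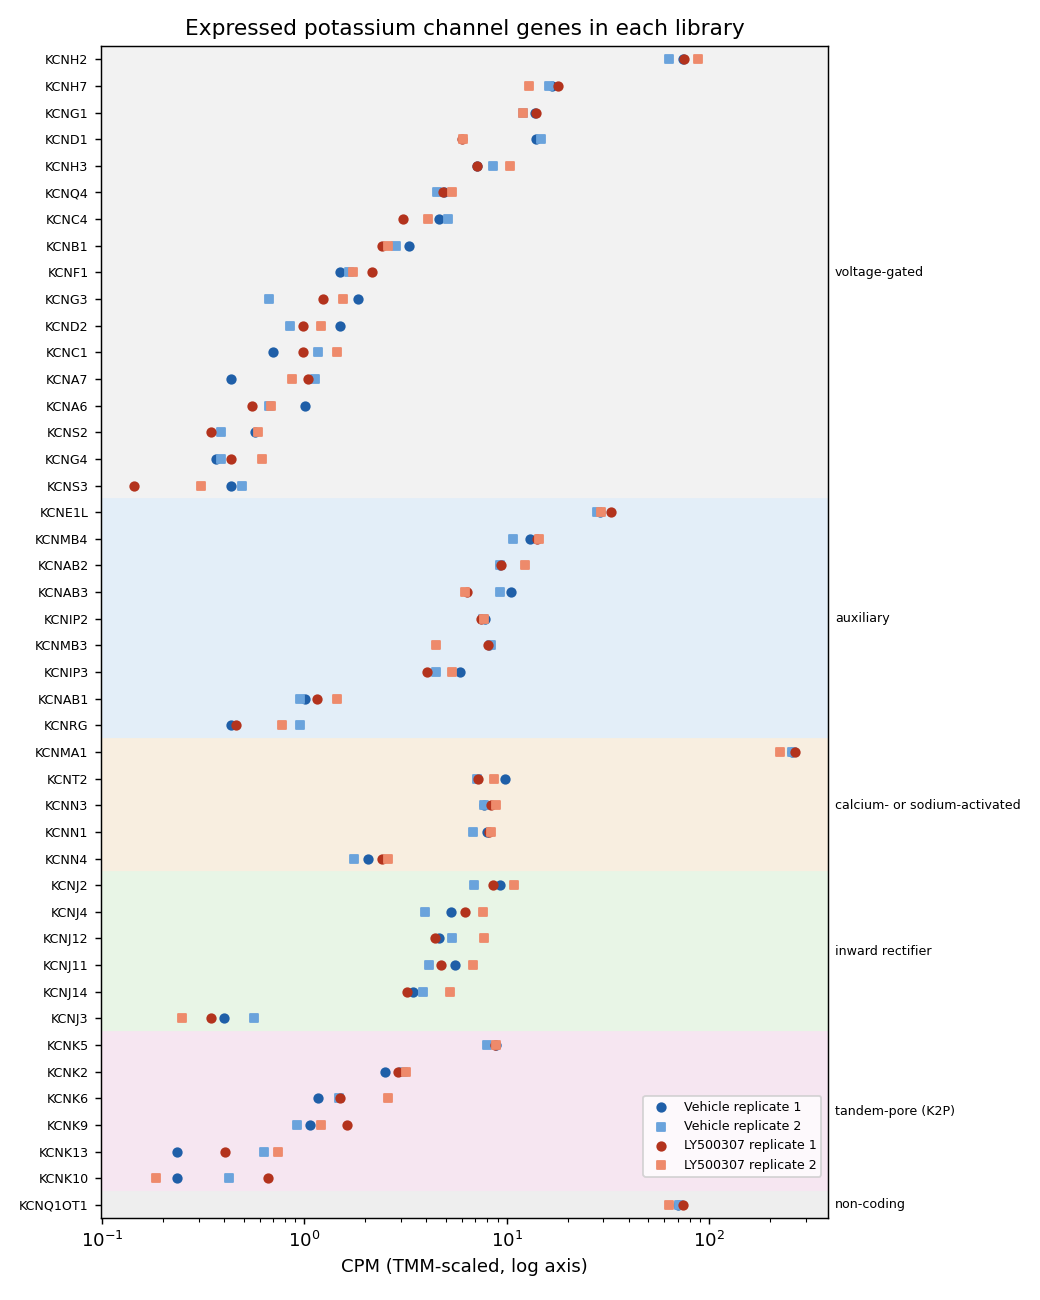
Levels of 44 of the 46 expressed potassium channel genes in each library, in TMM-scaled CPM on a logarithmic axis. Circles are replicate 1 and squares replicate 2, blue for vehicle and red or orange for LY500307, with genes grouped by class and ordered by mean level. KCNMA1 stands highest at 224 to 265 CPM, and the vehicle and LY500307 points of KCND1 are apart.

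Levels were compared between genes per length, as RPKM (CPM per kilobase of the canonical transcript). A single channel, KCNMA1, led the family. It encodes the pore of the large-conductance calcium- and voltage-activated BK channel and had 7676 and 7291 reads with vehicle and 9188 and 7242 with LY500307. This was 35.8 to 42.3 RPKM over the 4 libraries, above every other member in every library. KCNE1L (the older name of KCNE5, a small auxiliary subunit of KCNQ1-type channels) followed at 19.0 to 22.1 RPKM and KCNH2, which encodes the hERG channel of cardiac repolarization, at 14.7 to 20.5 RPKM. Exons of KCNE1L share 78 bases with those of ACSL4 on the same strand, a gene with 6905 to 8270 reads. Its part in the level of KCNE1L was not tested. The ranges of KCNE1L and KCNH2 overlapped, so their order is not set beyond the spread between libraries.

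Below them, KCNMB3 and KCNG1 had overlapping ranges of 4.13 to 7.72 and 5.50 to 6.34 RPKM. KCNG1 encodes a silent subunit that modifies Kv2 channels. KCNMB3 encodes a BK auxiliary subunit, but 3403 bases of its annotated exons overlap those of PIK3CA on the other strand. The strand setting of the counting is not given in the sources used here, so its reads cannot be told apart from those of PIK3CA if strand was not used. Mean levels were 3.73 RPKM for KCNH7 (an Erg-type channel) and 2.16 for KCND1, and 26 members reached 1 RPKM. In all, 17 of the 46 expressed genes overlap an exon of another annotated gene.

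Partner subunits were expressed unevenly. For the BK channel, KCNMB4 (a neuronal-type beta subunit) had 390 and 304 reads with vehicle and 490 and 464 with LY500307, while KCNMB1 had 1 to 5 reads and KCNMB2 none. None of the 4 BK gamma subunit genes passed the filter. KCNQ1, the channel partner for which KCNE subunits are best known, had 0 to 2 reads per library, although KCNE1L had 795 to 1131. The antisense non-coding RNA KCNQ1OT1, transcribed from within the KCNQ1 gene and known for imprinting of that region, had 2100 and 2024 reads with vehicle and 2575 and 2043 with LY500307. The pancreatic-type KATP pair was present at low level, with 117 to 219 reads of its pore gene KCNJ11 and 40 to 51 of its sulfonylurea receptor gene ABCC8, whereas ABCC9 had none. Among calcium-activated channels of small conductance, KCNN1 had 194 to 285 reads and KCNN3 219 to 289. The intermediate channel gene KCNN4 had 50 to 84.

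Summed over members, the family gave 142 to 148 RPKM per library. Voltage-gated genes gave 45.1 to 47.8 RPKM of this, calcium- or sodium-activated genes 41.6 to 47.7 and auxiliary genes 38.4 to 42.3. Inward rectifiers summed to 6.59 to 10.7 RPKM and K2P genes to 3.97 to 4.85. The range of the calcium- or sodium-activated genes overlapped both other leading classes, whereas auxiliary genes stayed below voltage-gated genes. Inward rectifiers and K2P genes lay below these 3 classes in every library, and K2P genes below inward rectifiers.

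The effect of LY500307 on these genes was then examined. KCND1, by which the family was chosen, had the largest difference of the 46, at 42.0% of its vehicle level. Of the others, the auxiliary subunit gene KCNAB3 was lower and the inward rectifier gene KCNJ4 higher with LY500307, each at a smaller size. Without KCND1, 28 of the 45 remaining genes had a positive log2FC (log2 fold change, LY500307 against vehicle, given below with its standard error, SE) and 17 a negative one, with a median of 0.15, against 0.00 over all 14473 genes tested. The study's criteria were p below 0.05 before adjustment, and a log2FC beyond 0.5 in either direction. With them in edgeR's quasi-likelihood test, 2 of these 45 were called, KCNJ4 higher and KCNAB3 lower. Some uncalled members had lower log2FC values than KCNAB3, down to -1.03 among voltage-gated genes and -0.68 among inward rectifiers. Over all genes tested the same criteria called 4.62%, with 2.76% higher and 1.86% lower, so 2 of 45 is near that background. After Benjamini-Hochberg adjustment, 0 of the 45 and 0 of all 14473 genes tested had an adjusted p below 0.05 in edgeR. An unadjusted p below 0.05 was found for 3 of the 45 (KCNAB3 and KCNJ4 among them) and for 1678 of all 14473. In DESeq2, 0 of the 45 and 20 of all genes tested (0.138%) had an adjusted p below 0.05. The groups did not overlap for 21 of the 45, 14 higher and 7 lower, against 48.6%, 24.2% and 24.4% of all genes tested. The plot of fold changes with standard errors shows 44 of the 46 expressed genes. With 2 samples per group the smallest two-sided p of an exact permutation test is 0.333, and the calls rest on a spread estimated across genes. Without LY500307 replicate 1 the criteria called 6 of 48 genes other than KCND1 and 13.3% of all genes, and 7 of the 48 but 33.6% of all genes had an adjusted p below 0.05 in edgeR. The lone LY500307 sample is there assumed to vary like the vehicle pair.

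**Figure D2:**
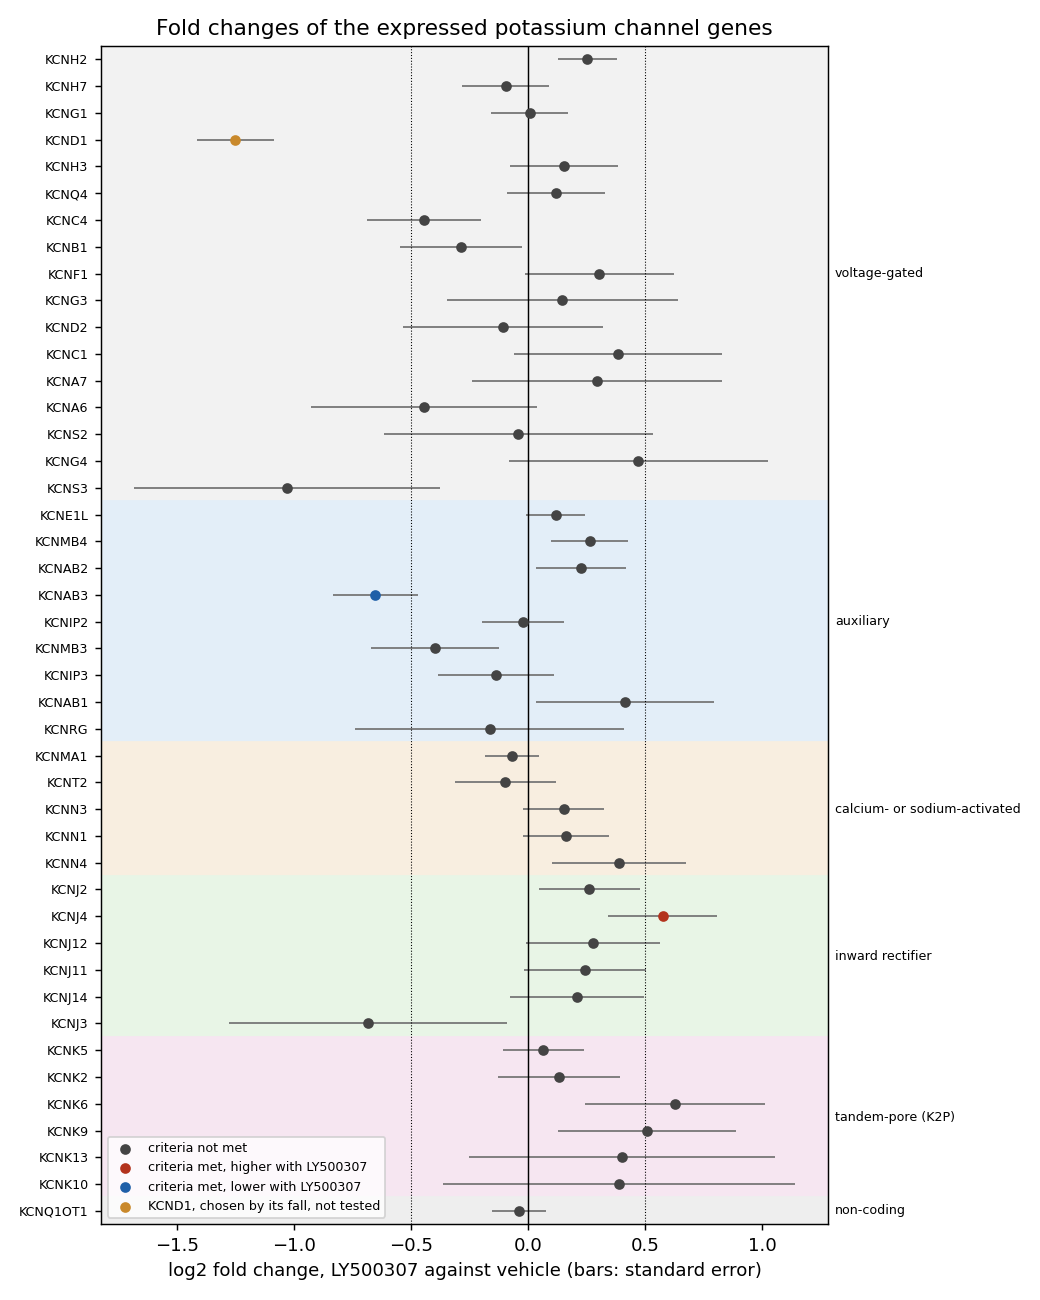
Log2 fold change of 44 of the 46 expressed potassium channel genes, LY500307 against vehicle, with bars of 1 standard error from edgeR and dotted lines at -0.5 and 0.5. KCNAB3 (blue) and KCNJ4 (red) met the study's criteria, and KCND1 (orange) is the untested member by which the family was chosen.

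KCND1 encodes Kv4.1, a voltage-gated channel that carries a transient A-type current. It had 416 and 421 reads with vehicle and 208 and 196 with LY500307. Both LY500307 libraries lay far below both vehicle libraries, and the 2 libraries of each group were close together. The level was 14.3 ± 0.66 CPM with vehicle and 6.03 ± 0.05 CPM with LY500307 (SD, n = 2 each), 42.0% of the vehicle level. The log2FC was -1.25 with an SE of 0.17, and the single LY500307 libraries stood at -1.26 and -1.24 against the vehicle mean. KCND1 lies on the minus strand of chromosome X at 48818639 to 48828251 (GRCh37), and no exon of another annotated gene overlaps its exons. Its neighbours OTUD5, at a gap of 2990 bases, and GRIPAP1, at 1879 bases, are on the same strand. OTUD5 had a log2FC of 0.03 (SE 0.13), with 2384 and 2558 reads with vehicle and 3332 and 2498 with LY500307. GRIPAP1 had -0.29 (SE 0.18, adjusted p = 0.504 in edgeR), with values of -0.61 when LY500307 replicate 1 was left out and -0.02 when replicate 2 was.

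The promoter windows of KCND1 and KCNJ4 run from 250 bases before to 50 bases after the RefSeq start. They are given because these members differed between groups in opposite directions and the agonist acts on a DNA-binding receptor. KCNAB3 had no window in the promoter set used. Capitals mark the motif matches. The sequences are from RefSeq (table build GRCh38.p14), and each matched the minus strand of GRCh37 once. The KCNJ4 window belongs to a RefSeq start inside the annotated gene span, not at its upstream end.
KCND1 promoter, chrX:48828202-48828501: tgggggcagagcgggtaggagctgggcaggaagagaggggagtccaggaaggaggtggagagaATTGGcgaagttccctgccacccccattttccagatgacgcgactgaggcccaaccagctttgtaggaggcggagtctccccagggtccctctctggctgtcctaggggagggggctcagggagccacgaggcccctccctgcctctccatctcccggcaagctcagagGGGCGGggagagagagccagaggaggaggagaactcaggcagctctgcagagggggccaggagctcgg
KCNJ4 promoter, chr22:38839984-38840283: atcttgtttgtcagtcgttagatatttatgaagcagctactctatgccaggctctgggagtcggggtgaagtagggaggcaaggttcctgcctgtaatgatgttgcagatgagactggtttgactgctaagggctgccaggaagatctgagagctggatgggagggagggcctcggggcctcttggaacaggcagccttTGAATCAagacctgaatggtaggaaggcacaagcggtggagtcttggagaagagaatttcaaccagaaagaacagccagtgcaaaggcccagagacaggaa
The KCND1 window is 65.7% G and C with 9 CpG sites, and the KCNJ4 window 51.7% with 4. Both strands were searched for the estrogen response half-site GGTCA and the full element (GGTCA, 3 bases, TGACC). The SP1 box GGGCGG, the CCAAT box and TATAAA were searched too. So was a loose AP-1 pattern, TGANTCA with any base at N, called the AP-1 site here. KCND1 had the CCAAT box (as ATTGG) at position -187 and the SP1 box at -18. KCNJ4 matched the loose AP-1 pattern (as TGAATCA) at -51. Neither window held these estrogen response letters, and sequence outside the windows was not searched. Of 35116 RefSeq promoter windows of this length, 34.6% held the CCAAT box, 45.0% the SP1 box, 7.71% the AP-1 site, 37.4% the half-site and 0.0570% the full element. Among the 73 potassium channel genes with a window, 25 held the CCAAT box, 44 the SP1 box, 4 the AP-1 site, 18 the half-site and 0 the full element. A match is a description of letters and not a site of binding. The median window of the 32 expressed members had 20 CpG sites, that of the 41 others 16 and that of all windows 14.

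The relatives and partners of KCND1 differed from it in level. KCND2, which encodes Kv4.2, had 45 and 24 reads with vehicle and 34 and 39 with LY500307, a log2FC of -0.11 (SE 0.43). KCND3, which encodes Kv4.3, had no read. Kv4 channels are accompanied by the calcium-binding KChIP proteins and by DPP6 or DPP10. KCNIP2 had 234 and 217 reads with vehicle and 260 and 250 with LY500307 (log2FC -0.02, SE 0.18). KCNIP3 had 175 and 127 against 140 and 173 (-0.14, SE 0.25). In both genes the groups overlapped in CPM. KCNIP4 had 0 to 6 reads per library and KCNIP1 none. DPP6 had 3 and 2 reads with vehicle and 0 and 0 with LY500307, and DPP10 had none.

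KCNAB3, an auxiliary beta subunit of Kv1-type channels, was lower with LY500307. It had 315 and 262 reads with vehicle and 221 and 200 with LY500307, and the groups did not overlap. Its level was 9.86 ± 0.91 CPM with vehicle and 6.28 ± 0.13 CPM with LY500307 (SD, n = 2 each), a log2FC of -0.65 with an SE of 0.18. The adjusted p was 0.422 in edgeR and 0.209 in DESeq2, and it ranged from 0.00654 to 0.973 over the alternatives, the lowest without LY500307 replicate 1. The criteria were no longer met without vehicle replicate 1 (log2FC -0.55). The gene lies on chromosome 17 at 7825177 to 7833174 (GRCh37, minus strand), and 252 bases of its exons overlap a further protein-coding annotation on the same strand. TRAPPC1, 488 bases away, had a log2FC of 0.14 (SE 0.12). Its sister genes KCNAB2 (276 and 264 reads against 324 and 398, log2FC 0.23, SE 0.19) and KCNAB1 (0.41, SE 0.38) did not meet the criteria. None of the Kv1 pore genes that these subunits bind exceeded 1 CPM on average. KCNAB1 and the Kv1 genes were chosen after their values were seen.

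KCNJ4, a strong inward rectifier (Kir2.3), was higher with LY500307. It had 159 and 112 reads with vehicle and 215 and 246 with LY500307, and the groups did not overlap. Its level was 4.62 ± 0.96 CPM with vehicle and 6.90 ± 1.00 CPM with LY500307 (SD, n = 2 each), 1.49-fold. The log2FC was 0.58 with an SE of 0.23, and the adjusted p was 0.428 in edgeR and 0.421 in DESeq2, with a range of 0.0107 to 0.986 over the alternatives. The criteria were no longer met without vehicle replicate 2 (0.38) or without LY500307 replicate 2 (0.42). The gene lies on chromosome 22 at 38822332 to 38851205 (GRCh37, minus strand), and 260 bases of its exons overlap an antisense non-coding gene. Its neighbour KDELR3 had a log2FC of 0.16 (SE 0.13).

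**Figure D3:**
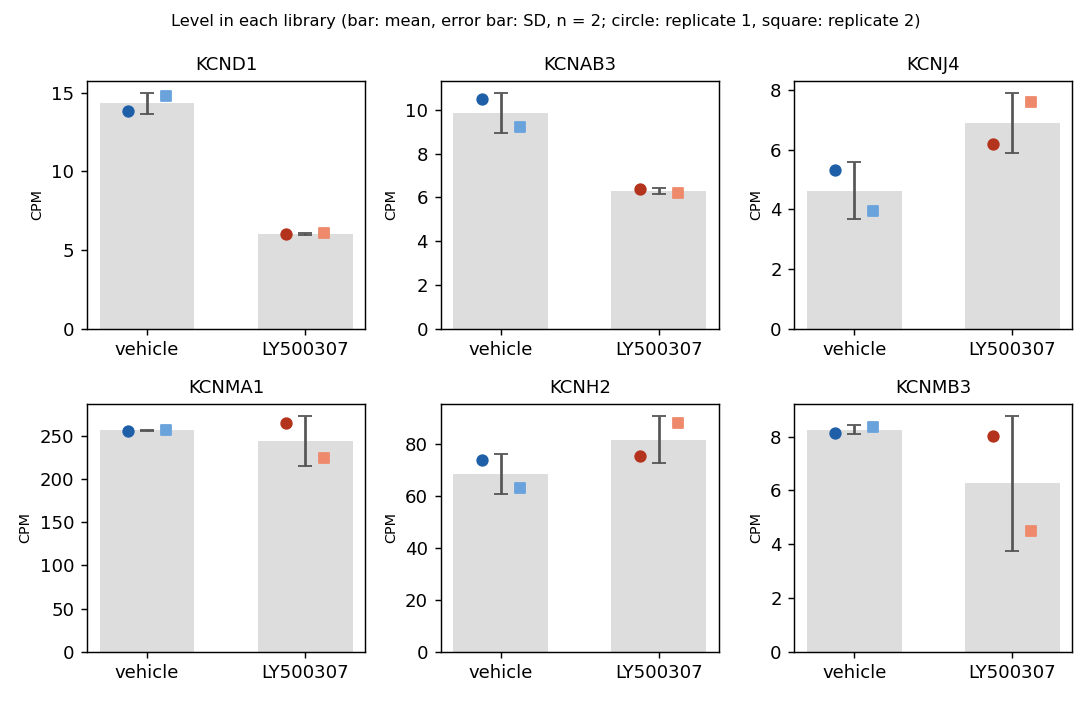
TMM-scaled CPM of 6 members in each library. Bars are group means starting at 0, error bars are the SD (n = 2), circles are replicate 1 and squares replicate 2. The groups do not overlap except in the panel of KCNMA1, but those of KCNMB3 and KCNH2 nearly touch. Over all genes tested, 48.6% also had groups that did not overlap. The LY500307 replicates of KCNMB3 and KCNMA1 are spread more widely than their vehicle replicates.

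Other highly expressed voltage-gated genes did not meet the criteria. KCNH2 had 2215 and 1795 reads against 2613 and 2850, or 68.5 ± 7.60 against 81.7 ± 9.11 CPM (SD, n = 2 each). Its log2FC was 0.25 (SE 0.13). The groups did not overlap, but the higher vehicle library (73.9 CPM) was close to the lower LY500307 library (75.3 CPM). KCNH7 had -0.10 (SE 0.18) and KCNG1 0.01 (SE 0.16), with overlapping groups.

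By class, the 18 voltage-gated genes other than KCND1 had 10 positive and 8 negative log2FC values, a median of 0.06 and no call. Auxiliary genes had 4 positive and 5 negative values, a median of -0.02 and 1 call. Beside KCNAB3, KCNE1L had a log2FC of 0.12 (SE 0.13) and KCNMB4 of 0.26 (SE 0.16). KCNMB3 had 244 and 238 reads against 279 and 145, a log2FC of -0.40 (SE 0.27). The lower value came from LY500307 replicate 2, the library with the lowest share of reads outside genes, whose part in the result was not tested. The 5 calcium- or sodium-activated genes had a median of 0.15 and no call. KCNMA1 stood at 256 ± 0.30 CPM with vehicle and 244 ± 28.8 CPM with LY500307 (SD, n = 2 each), a log2FC of -0.07 (SE 0.11), with overlapping groups. For KCNN1, KCNN3 and KCNN4 both LY500307 libraries were above both vehicle libraries, with log2FC values of 0.16, 0.15 and 0.39, and none met the criteria. The same order of libraries held for 24.2% of all genes tested.

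Inward rectifiers had 5 of 6 positive log2FC values and a median of 0.25, but 2 of 6 were positive without LY500307 replicate 2 and the median was then -0.10. KCNJ2 (Kir2.1) had 276 and 196 reads with vehicle and 296 and 349 with LY500307, a log2FC of 0.26 (SE 0.22) with overlapping groups. KCNJ12 (0.28, SE 0.29) has a near-identical copy in KCNJ18, listed at 0, so its counts are uncertain. All 6 K2P genes, whose channels carry background leak current, had a positive log2FC, from 0.06 to 0.63 with a median of 0.39 and no call. KCNK5 (TASK-2), the highest of them, had 265 and 227 reads against 305 and 285, a log2FC of 0.06 (SE 0.17). KCNK6 had 35 and 42 reads against 52 and 84, the 0.63 at the top of the range, with an SE of 0.38. When 1 library was left out, 4 or 5 of the 6 stayed positive and the median lay between 0.08 and 0.60. The antisense RNA KCNQ1OT1 had a log2FC of -0.04 (SE 0.12).

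**Figure D4:**
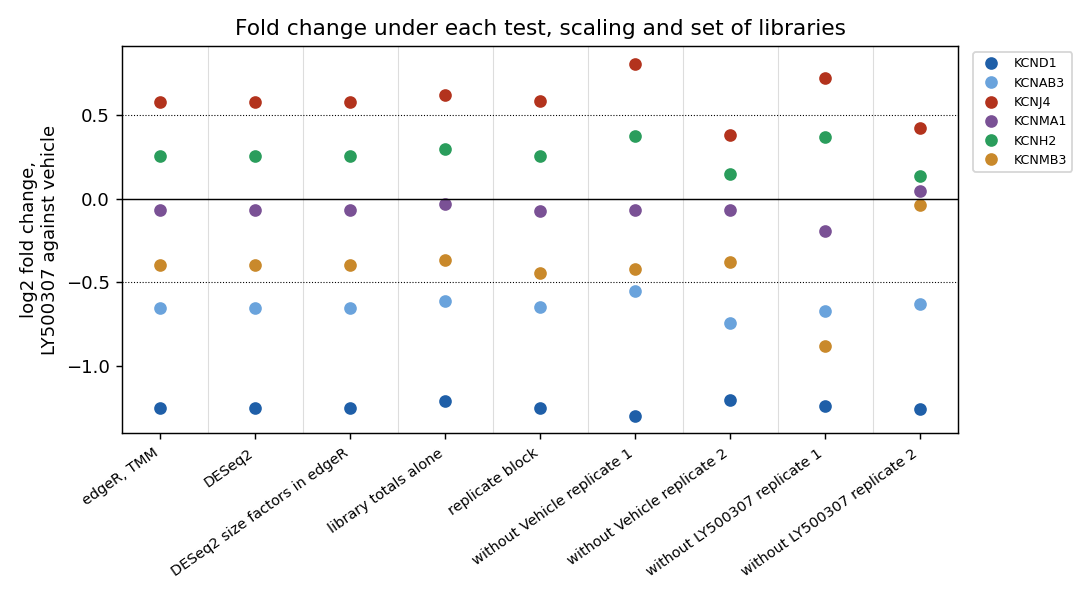
Log2 fold change of 6 members under each test, scaling and set of libraries, with dotted lines at -0.5 and 0.5. KCND1 stays between -1.30 and -1.20 throughout, whereas KCNMB3 stands at -0.88 when LY500307 replicate 1 is left out and at -0.04 when replicate 2 is.

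Other genes that move potassium were examined from lists of 39 genes (HCN channels, pumps, cotransporters, KATP and BK partners), of which 23 passed the filter. They had 10 positive and 13 negative log2FC values, a median of -0.03, and 1 call against the 4.62% of all genes. TMEM175, a potassium channel of lysosomes, had 233 and 165 reads with vehicle and 327 and 396 with LY500307, a log2FC of 0.67 (SE 0.22). Its adjusted p was 0.422 in edgeR and 0.232 in DESeq2, and ranged from 0.000114 to 0.986 over the alternatives. The criteria were no longer met without vehicle replicate 2 or without LY500307 replicate 2, each with a log2FC that fell short (0.48 and 0.47). The sodium-potassium pump gene ATP1B3 (4393 and 4129 reads against 5183 and 5596) had a log2FC of 0.14 (SE 0.11). The cotransporter gene SLC12A4 had 0.15 (SE 0.11). Neither of these genes met the criteria. All 4 HCN genes, whose pacemaker channels pass potassium and sodium, had negative log2FC values from -0.65 to -0.13 with a median of -0.24 and no call, and the sign was the same under each alternative that tested them.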

How the data were processed

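RNA of 4 samples was read as 50-base single ends. The labels describe total RNA libraries and the study's methods stranded mRNA libraries. The authors aligned reads to hg19 with TopHat2 2.0.8b and deposited raw HTSeq counts per gene symbol, with no normalization. The strand setting was not given in the sources used here.

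The test was edgeR 4.0.16 under R 4.3.3 (quasi-likelihood, after filterByExpr and TMM, with Benjamini-Hochberg adjustment over 14473 genes), after the procedure was tested on simulated data. A call needed a log2 fold change beyond 0.5 in either direction, at p below 0.05 before adjustment. The standard error is the log2 fold change divided by the root of the F statistic. Tally lines outside genes were left out. Of 98 members, 97 had coordinates in GENCODE v44 mapped to GRCh37, and 95 had a canonical coding transcript whose length gave RPKM. The classes were set by symbol. Members and lists were chosen with earlier results of these data known. Genes named were KCND1, called members, the 12 highest by CPM, the highest of each class, the KCND and KCNIP genes, called or the 3 highest other potassium genes, and annotated neighbours of called members. Other genes in the text were chosen after their values were seen. Alternatives were DESeq2 1.42.0, its size factors, library totals alone, 2 other filters, a replicate block and leaving out each library. Some genes that this rule names are not reported here.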

Additional observations from a re-analysis of the deposited data

How the results depend on the processing

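Other than KCND1, whose fall chose the family, 2 potassium channel genes met the criteria with DESeq2, KCNAB3 and KCNJ4. The same 2 met them with DESeq2 size factors, with library totals alone, with both other filters and with the replicate block. The number counting KCND1 was 3 in each, but KCND1 was set by that choice and carries no test. It ranged from 2 to 7 when 1 library was left out, or from 1 to 6 without KCND1. The count of 7 came without LY500307 replicate 1, where 13.3% of all genes met the criteria, against 2.37% without LY500307 replicate 2. With 1 LY500307 library left out, the lone LY500307 sample is assumed to vary like the vehicle pair. With the replicate block, log2 fold changes were -0.65 for KCNAB3 and 0.58 for KCNJ4. Same-numbered libraries had deviations from their group means correlated at -0.07, which gives no sign of pairing. The expressed set grew from 46 to 78 with all genes of at least 1 count, was 38 at a CPM of at least 1 in at least 2 samples, and ranged from 48 to 50 without 1 library. Of the other potassium genes, 1 met the criteria, with 2 under library totals alone, 2 with all genes of at least 1 count and 0 to 2 without 1 library. Library totals alone moved the median of all genes to 0.04 on the log2 scale.

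Of the alternative values of named genes, 239 kept their direction and their side of the criteria, 2 gained a call, 5 lost it and 14 turned sign. These values include those of KCND1, which are a description and no sign of stability of the family. KCNIP2 was 0.0188 with library totals alone. Leaving out 1 library gave ranges of -0.19 to 0.0488 for KCNMA1, -0.16 to 0.0730 for KCNQ1OT1, -0.36 to 0.13 for KCNH7, -0.0988 to 0.11 for KCNG1, -0.00629 to 0.14 for KCNK5, -0.46 to 0.37 for KCND2, -0.0415 to 0.00496 for KCNIP2, -0.35 to 0.0694 for KCNIP3 and -0.13 to 0.18 for OTUD5. The cause was not tested. Depth limits the low members: 1 read was worth 0.0288 to 0.0352 CPM, and the 9 expressed members under 1 CPM had standard errors of 0.48 to 0.75 on the log2 scale.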
